A study of Drosophila melanogaster with 8 samples.

Results

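Mthfs encodes 5-formyltetrahydrofolate cycloligase, an enzyme of folate metabolism, and is measured here in whole adult Drosophila melanogaster that lack normal function of the apoptosis gene dark and in control flies. All probes that carry the RefSeq transcript of Mthfs (NM_001103962) as their identifier were taken, which gave 1 probe with 1 spot per array, of 32162 fly probes. The gene was selected on its measured levels on the mutant and control arrays, which were known to differ on average, so those levels are a description and no test of that difference is given. It was well above background, neither saturated nor marked as an outlier, on all 8 arrays.

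Folates carry single-carbon units between reactions. Mthfs uses ATP to convert formyltetrahydrofolate, a storage form of folate, into methenyltetrahydrofolate, which returns the carbon unit to the active pool. From that pool the unit can go into purines or into thymidylate. In many organisms it can also go, after reduction to methyltetrahydrofolate, onto homocysteine to make methionine. Whether flies have that last step was not examined here. Methionine is the source of S-adenosylmethionine, the methyl donor that Gnmt and other methyltransferases consume. The published work on these flies describes a change in methionine metabolism that involves Gnmt, and that is the setting in which Mthfs is read here. Gnmt and Sardh, which acts on the sarcosine that Gnmt makes, could be matched to no probe and were not analysed here; 20979 probes carry FlyBase transcript numbers that were not paired with genes, so both may be measured under such a number.

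The control flies were w1118, a white-eyed laboratory strain. The mutants were w1118;darkcd4, with the darkcd4 allele backcrossed for 6 generations to w1118. The product of dark is the fly counterpart of Apaf-1, which activates the initiator caspase Dronc. There were 4 samples per genotype, and for each of them RNA was pooled from 5 whole flies on day 5 of adult life. Flies had been kept at 25 °C with free mating. The labels give neither the sex of the flies nor whether samples came from separate cultures, so any spread between samples may be technical. In whole flies, a change in the number of cells that express a gene and a change in RNA per cell cannot be told apart.

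Several features of the arrays bear on the values below. The gene dark had no matched probe, so the genotype labels could not be checked by it. The 8 arrays were on 1 slide in 2 rows, each row with 2 arrays of each genotype. Genotype and column of the slide were confounded and cannot be told apart. The 75th percentile of the processed signal, by which each array was scaled, had a mean of 492.6 ± 42.4 on the 4 control arrays and of 376.5 ± 107.3 on the 4 mutant arrays (SD; exact permutation test, two-sided, p = 0.114). Mutant 3 was closer to the controls (mean Pearson r over targets 0.983) than to the other mutants (0.975), whereas mutants 1, 2 and 4 were closer to the other mutants. Of 34 markers of 7 tissue or sex classes, 6 had a matched probe, 3 of the gut and 3 of males, and all 6 were well above background on all 8 arrays. No marker of fat body, ovary, muscle, eye and nervous system, or hemocytes had a matched probe.

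Mthfs signal was higher on average in the mutants. The processed signal, a background-subtracted brightness on a linear scale, was 2160, 1152, 1077 and 1010 on control 1 to 4. It was 2348, 2699, 1800 and 2617 on mutant 1 to 4. The local background around the spot was between 17 and 19 on every array, so these signals lay far above it. On this unscaled measure 3 mutants exceeded every control, and mutant 3 lay below control 1 and above the other controls.

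Scaled to the array's 75th percentile, the Mthfs level on the log2 scale was 2.24, 1.06, 1.19 and 1.05 on control 1 to 4. The corresponding levels were 3.21, 2.88, 1.80 and 2.82 on mutant 1 to 4. The genotypes thus overlapped through a single pair of arrays, control 1 and mutant 3. Control flies had a mean level of 1.38 ± 0.58 and mutant flies one of 2.68 ± 0.61 (SD, n = 4 each), a difference of 1.29 on the log2 scale, or 2.45-fold. That difference was larger than the pooled SD within genotypes, 0.59. Part of it came from the scaling, since the log2 of the 75th percentile differed by -0.43 between mutant and control arrays; without scaling between arrays the Mthfs difference was 0.87, or 1.82-fold.

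**Figure D1:**
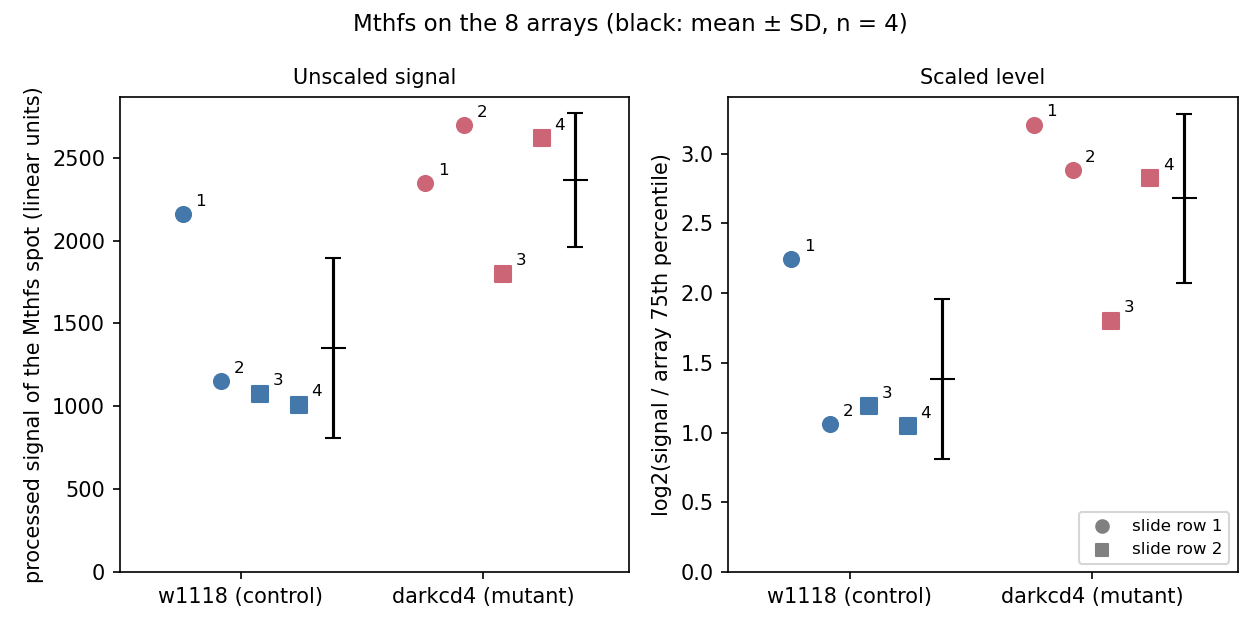
The left panel plots the processed signal of the Mthfs spot in linear units and the right panel its log2 level over the array's 75th percentile, for 4 control and 4 mutant arrays; numbers are replicates, circles and squares are slide rows 1 and 2, and black bars are mean ± SD. Control 1, at 2.24, lies above mutant 3, at 1.80, and the other 3 mutants lie above all controls.

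The spread of Mthfs within genotypes was wide and came from single arrays. Its pooled SD exceeded that of 91.2% of the 19206 targets tested. Among the controls, replicates 2, 3 and 4 lay within 1.05 to 1.19 and replicate 1 stood apart at 2.24. Among the mutants, replicates 1, 2 and 4 lay within 2.82 to 3.21 and replicate 3 was lowest at 1.80. Leaving out mutant 3, the mutant mean was 2.97 ± 0.21 (SD, n = 3) and the difference 1.59, with the lowest remaining mutant, 2.82, above the highest control, 2.24. Leaving out control 1, the difference was 1.58. Leaving out any other single array gave 1.12 to 1.25.

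The difference held in direction and size in both rows of the slide. In row 1 the means were 1.65 in control and 3.04 in mutant flies, a difference of 1.39 (n = 2 each). In row 2 they were 1.12 and 2.31, a difference of 1.20. Within each row the genotypes did not overlap, with the lowest mutant 0.64 above the highest control in row 1 and 0.62 above it in row 2. The same was true of 11.4% of all targets measured on all 8 arrays, so this separation was common on these arrays and nothing is read from it. Mean levels in row 1 exceeded those in row 2 by 0.53 in control and by 0.73 in mutant flies. Both gaps came largely from single arrays, control 1 and mutant 3. Control 2, in row 1, was at 1.06, between controls 3 and 4 of row 2. Mutant 2, in row 1, was at 2.88, close to mutant 4 of row 2 at 2.82.

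Across all targets, the comparison of mutant and control flies with limma called 2.19% (Benjamini-Hochberg threshold 0.05), of which the share higher in the mutant was 1.28% and the share lower 0.906%. Lower calls outnumbered higher ones with the slide row as a block (829 higher, 913 lower), with the small structured RNA covariate described below (914 and 987) or without mutant 3 (1227 and 1301). Mthfs was not among the 420 called, although only 1.55% of targets had as large a difference or a larger one in its direction (rank 298). It was among the called targets in 5 of the other settings, which are named with the processing settings. Since the gene was chosen for this contrast, neither outcome is support.

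The gene directly before Mthfs in the Release 6 order of genes was well above background on 3 of the mutant arrays only, and mutant 3 was the exception. Mthfs lies on chromosome arm 2R, as does dark, with 1276 annotated genes between them. Its neighbour on one side is CG34423, with which it shares the older gene name CG11079. Its neighbour on the other side is vir, whose annotated span overlaps that of Mthfs and for which no probe was matched. The position of the Mthfs probe within the transcript, and so whether it lies in the overlap, is not given in the sources used here.

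The CG34423 probe, the average of 2 spots, failed to reach the level called well above background on each control array and on mutant 3. It reached that level on mutants 1, 2 and 4. Its processed signal was 1.30, 1.19, 2.59 and 2.14 on control 1 to 4 and 33.5, 47.4, 3.099 and 39.0 on mutant 1 to 4. The array with the lowest Mthfs level among the mutants was thus the one mutant array on which CG34423 was not well above background. Because it passed on only 3 arrays, CG34423 did not enter the fit and has no test. It was singled out after its values were seen.

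Only 267 of the tested targets could be given a gene name, so genes nearer to Mthfs may be on the array under other identifiers. The nearest tested gene with a name on the same side as CG34423 was CG9875, with 2 genes between it and Mthfs, and its mean difference had the opposite sign. Its level was 2.44, 2.26, 2.403 and 2.30 on control 1 to 4 and 2.04, 2.04, 2.31 and 2.01 on mutant 1 to 4, again with mutant 3 inside the range of the controls. The difference was -0.25 ± 0.11 (SE, n = 4 per genotype) and did not pass (limma, adjusted p = 0.227). On the other side the nearest tested gene that could be named was apt, a transcription factor gene, with 42 genes between; it differed by -0.15 ± 0.19 (limma, adjusted p = 0.677). Of the 20 genes within 10 places of Mthfs on either side, CG34423 and CG9875 were the 2 with a matched probe. For both of them and for Mthfs, which each had 1 probe, a sequence difference under the probe and a different RNA level cannot be told apart.

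**Figure D2:**
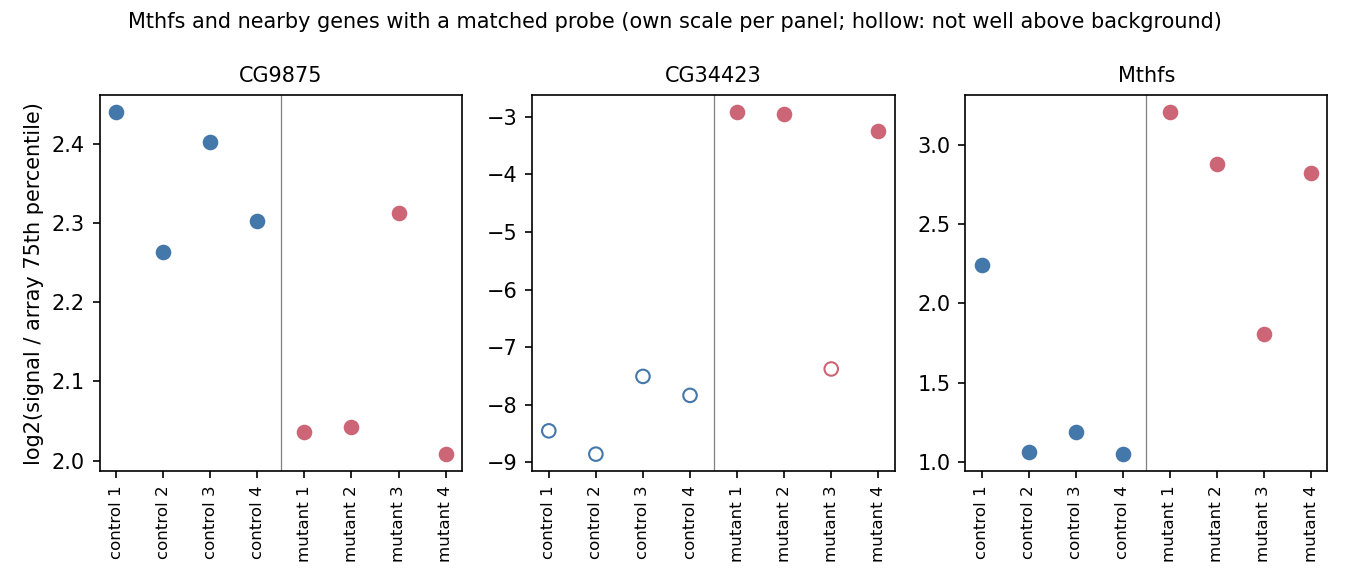
Each panel plots the log2 level over the array's 75th percentile for 1 gene on 4 control (blue) and 4 mutant (red) arrays, each panel on its own scale; hollow points were not well above background, where only an upper bound is known. Mutant 3 lies among the controls for CG9875, at 2.31, is hollow for CG34423, and is the lowest mutant for Mthfs, at 1.80.

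Small structured RNAs, such as spliceosomal and nucleolar RNAs, varied strongly between arrays, and their highest control and mutant arrays were also those of Mthfs. Their mean level over 12 RNAs was 1.19, -0.60, -0.68 and -0.23 on control 1 to 4 and 1.92, 1.44, -0.66 and -0.27 on mutant 1 to 4. This mean was highest on control 1, mutant 1 and mutant 2. The grouping was picked after seeing the data, and the share of all targets that show it is not given, so nothing is read from it. CG17272, Uhg2 and RpS18, described below, showed it too, so it is not particular to small structured RNAs. Control 1 was also the control array with the highest Mthfs level, and mutant 1 the highest mutant. Mutant 4 did not follow: its Mthfs level of 2.82 was close to the 2.88 of mutant 2, while its small structured RNAs were at -0.27, within the range of controls 2 to 4. With their mean level as a covariate the Mthfs difference was 0.98, and without those 3 arrays it was 1.22 (3 controls and 2 mutants). Whether what moves these RNAs also moves Mthfs was not tested.

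**Figure D3:**
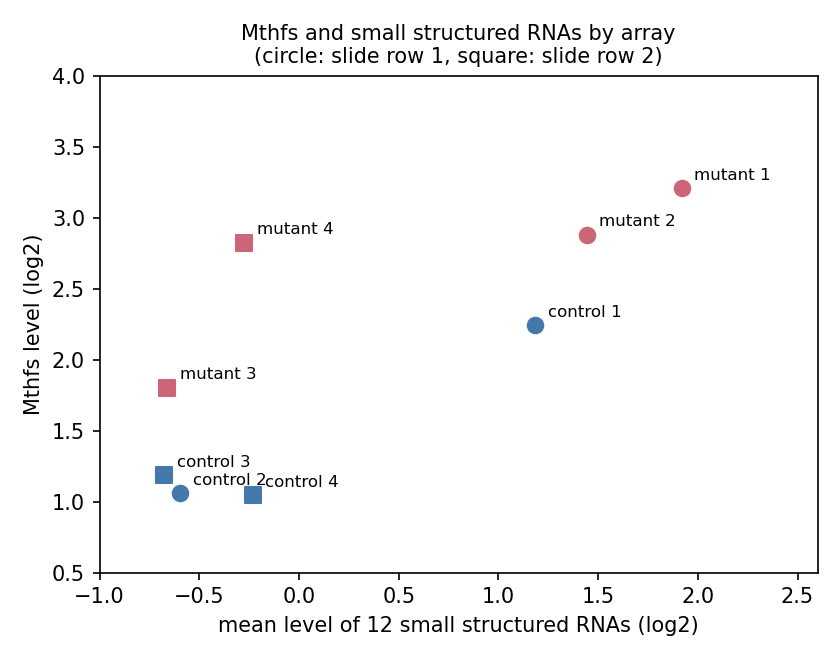
The x axis is the mean log2 level of 12 small structured RNAs and the y axis the log2 level of Mthfs, 1 point per array, blue for control and red for mutant. Control 1, mutant 1 and mutant 2 lie to the right, and mutant 4 has a high Mthfs level, 2.82, at a low level of these RNAs, -0.27.

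Most other genes of folate and methionine metabolism could not be set beside Mthfs. A list of 36 of them covered the folate interconversions, purine synthesis, the glycine cleavage system, the methionine cycle and the route from homocysteine to glutathione. Only Adss could be matched to a probe, and 0 of this 1 tested member passed, against 2.19% of all targets (limma). The unadjusted p of Adss was 0.053 (limma), just above 0.05, and 4055 of the 19206 targets had one under 0.05. Adss encodes adenylosuccinate synthetase, which acts in the synthesis of AMP, downstream of the steps of purine synthesis that take carbon units from folate. Its level was 2.94, 3.004, 2.75 and 3.01 on control 1 to 4 and 3.36, 3.29, 3.08 and 3.05 on mutant 1 to 4. All mutants thus lay above all controls, as for 5.98% of targets, by a small margin. The log2 difference was 0.27 ± 0.12 (SE; 4 arrays per genotype; adjusted p = 0.243 with limma), where the median of all targets was -0.02. No enzyme of the methionine cycle could be matched to a probe, so the published change in methionine metabolism was not analysed here.

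The named targets with the profile most like Mthfs were found by the root mean square difference between log2 levels over the 8 arrays, each profile taken relative to its own mean. Of 266 compared, the 5 nearest were CG17272 (0.43), CG8204 (0.43), Art7 (0.45), Uhg2 (0.48) and RpS18 (0.49). The next was at 0.50 and the median of all was 0.89, so the order among the first few is close. Art7 encodes an arginine methyltransferase, an enzyme class that uses S-adenosylmethionine. Uhg2 is a host transcript of small nucleolar RNAs, and RpS18 encodes a protein of the small ribosomal subunit.

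These profiles were alike mainly in the arrays that stood high or low. In CG17272, Art7, Uhg2 and RpS18, mutants 1 and 2 were the highest arrays. In those 4 genes control 1 was the highest control and mutant 3 the lowest mutant. Their mean differences between mutant and control flies, 0.52 to 0.62, were less than that of Mthfs. Their levels on mutant 3 lay within the range of the controls or below it. Mthfs on mutant 3, at 1.80, was also within its control range, though only through control 1. CG8204 differed from them: its difference was 1.63, larger than that of Mthfs, its mutant levels of 0.56 to 1.39 lay above its control levels of -1.10 to -0.48, and control 1 did not stand apart. Being chosen for likeness over these same arrays, these genes carry no test of their own here.

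**Figure D4:**
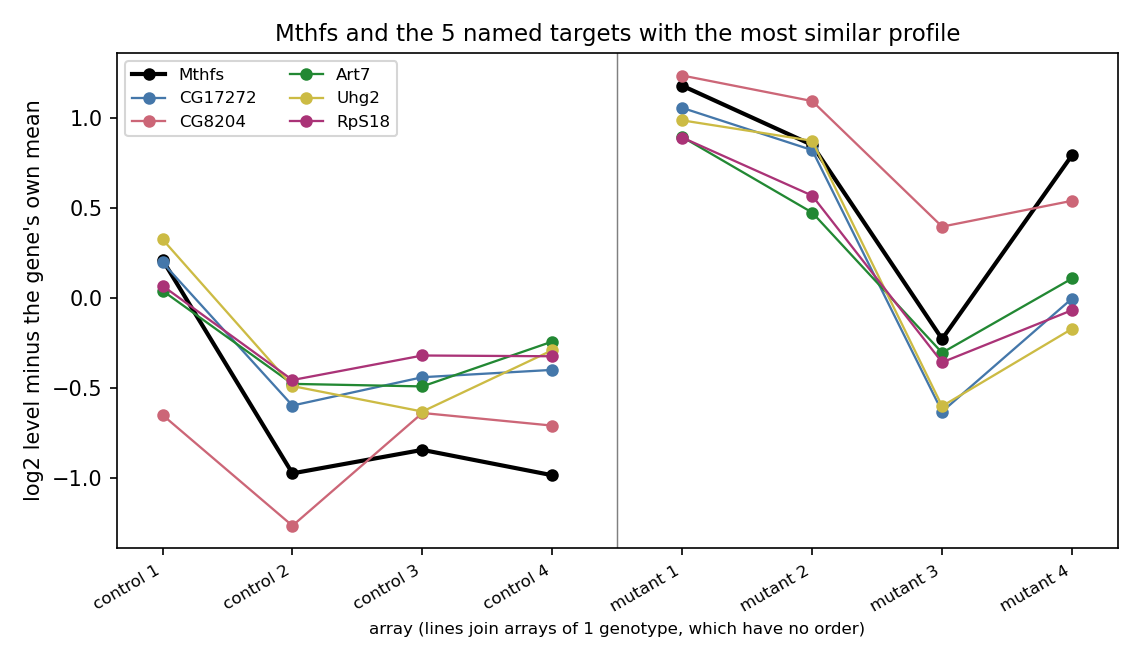
The y axis is the log2 level minus each gene's own mean and the x axis the 8 arrays, with Mthfs in black and the 5 most similar named targets in colour; lines join arrays of 1 genotype, which have no order. Mthfs shares with CG17272, Art7, Uhg2 and RpS18 a high control 1 and a low mutant 3, and is set apart from them by its high level on mutant 4.

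The Mthfs difference was above 0 in all 20 other settings tried, of which 3 could not move it by construction, from 0.87 with no scaling between arrays to 1.59 without mutant 3. In the authors' deposited log2 values of the whole series it was 1.30. Those values followed the scaled level used here, for Mthfs within 0.012, so they are no separate check.

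**Figure D5:**
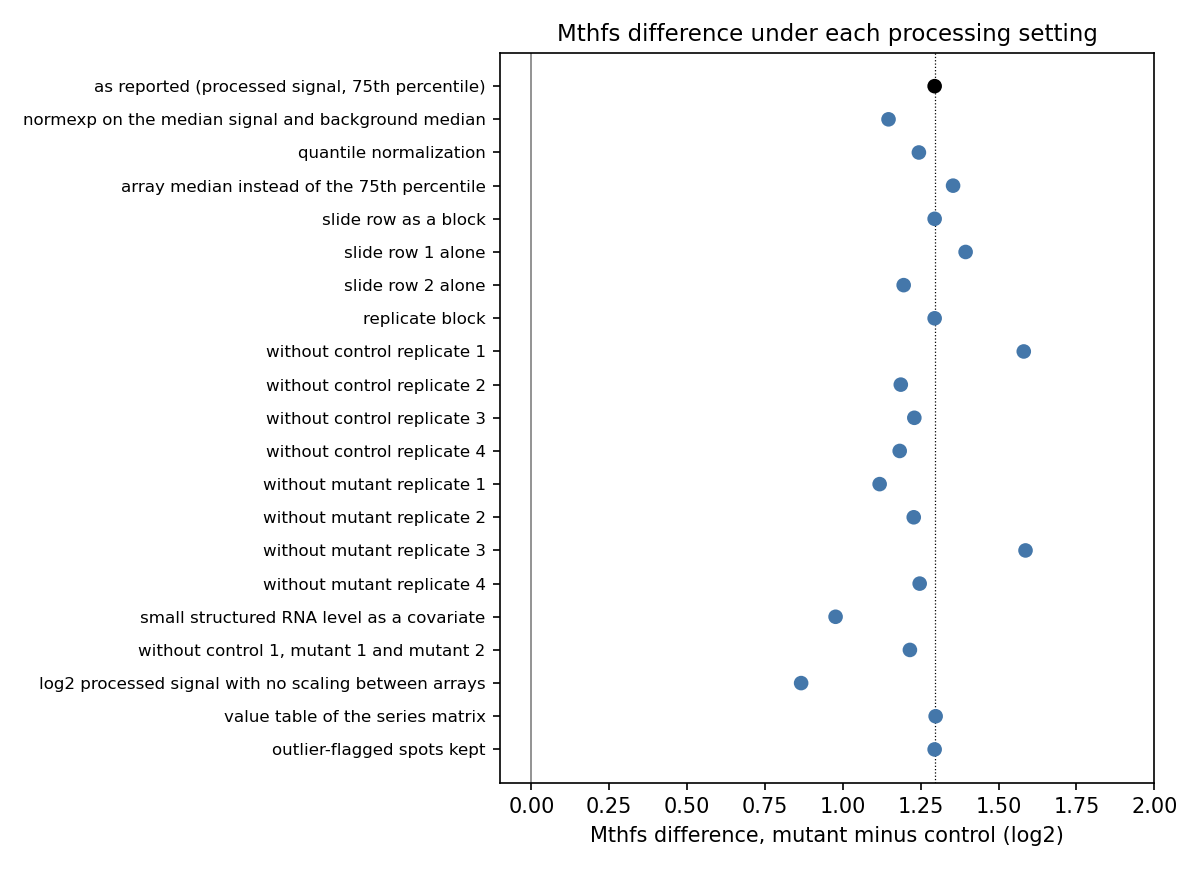
The x axis is the Mthfs difference between mutant and control flies on the log2 scale and each line is a processing setting; the black point is the value as reported, 1.29, and the grey line marks 0. All points lie between 0.87 and 1.59.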

How the data were processed

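RNA of 4 control and 4 mutant samples was labelled with Cy3 and hybridised to 1-colour Agilent arrays. Agilent Feature Extraction 10.7.3.1 gave the deposited intensity of each spot, per the file headers; its processed signal is background-subtracted and detrended within the array. Other deposited columns are flags of 0 or 1 for saturation, outliers and signal well above background. A deposited series table gives log2 values, which, compared with the scanner values, followed the scaled level centred on each probe's median (median absolute deviation 0.0044 over 19206 probes), with column medians between -0.041 and 0.053; how the authors made it is not given in the sources used here.

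Outlier spots were left out, spots of a probe were averaged, and values were log2 of the ratio of the processed signal to its 75th percentile on the array. Probes well above background on at least 4 arrays entered, the brightest per target. Names came from a RefSeq table of Release 6: 387 of 32162 fly probes matched (219 by accession, 19 by symbol or synonym, 149 by clone name). The arrays' grid names build dm3, so no coordinates are printed. Genotypes were compared over all 19206 targets with limma 3.58.1 in R 4.3.3 (lmFit, eBayes with trend, Benjamini-Hochberg). On simulated data for this comparison over these targets, 50.5% of changes of 1 and 86% of changes of 2 on the log2 scale were recovered. With 200 changed targets each time, there were 12 and 16 false calls beside them. Recovery is over all changed targets and is not given for targets as variable as Mthfs. Figures used matplotlib 3.10.9.

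Members, lists and rules were chosen with earlier results of these data known. Named were Mthfs, tested members of the folate and methionine list, the 5 nearest profiles and the nearest tested gene on each side. The number of arrays limits the precision.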

Additional observations from a re-analysis of the deposited data

Results flagged for a closer look

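Of 22 groups of 4 arrays checked for a value far from the rest, 3 stood out, where chance gives about 1 in 20. Mthfs on control 1 was at 2.24, against 1.05 to 1.19 on the other controls; 3.04% of all targets had control 1 as far above its group. CG9875 on mutant 3 was at 2.31, against 2.01 to 2.04 on the other mutants. CG8204 on control 2 was at -1.10, against -0.55 to -0.48 on the other controls. Outside the values that were tested, the CG34423 probe was well above background on 3 mutant arrays and on 0 control arrays.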

How the results depend on the processing

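The Mthfs difference stayed within 1 pooled SD, 0.59, of its value in all 20 settings. That SD was wide and every setting used the same spot on all or some of the same arrays, so this is a weak check. The slide row block and the replicate block cannot move the Mthfs difference in a balanced design. Keeping outlier spots cannot either, since no Mthfs spot was one. These 3 say nothing about stability. The deposited series values follow the same scaled level, so they are no separate check either. It was 1.15 with normexp background correction (on the median signal, offset 50; chosen after seeing that the files lack the mean signal), 1.24 with quantile normalization, 1.35 with the array median, and 1.12 to 1.59 leaving out 1 array. Normexp moved the median of all targets by 0.15, and relative to that median the Mthfs difference was 1.02. The unscaled, covariate and 3-array settings were also chosen after seeing the data. Mthfs has 1 probe and 1 spot, so the planned settings on other probes and spots give the same value.

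The 420 called targets became 1742 with the slide row as a block, 911 and 201 in rows 1 and 2 alone, and 1901 with the small structured RNA level as a covariate. Leaving out 1 array gave 136 to 2528: 251, 172, 136 and 180 without control 1, 2, 3 and 4, and 196, 153 and 2528 without mutant 1, 2 and 3. The causes were not tested. Mthfs was among the called targets with the row block, the replicate block or the covariate, and without control 1 or mutant 3. With the replicate number as a block the count was 1047 and the Mthfs difference 1.29. The labels give no basis for a pairing, and the samples were not treated as paired, since not every number had a positive correlation; a pairing is not shown to be absent. Deviations of same-numbered samples correlated at 0.68, -0.18, 0.29 and 0.33 across targets, and 3 of 4 controls correlated best with their own number. Numbers 1 and 2 of both genotypes were in slide row 1 and numbers 3 and 4 in row 2. Row and number therefore cannot be told apart in these correlations, and the replicate block includes the row.

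Adss stayed above 0 and was not called in any setting (0.14 to 0.35; limma, adjusted p 0.122 to 0.547). The 75th percentile differed by -162.5 to -75.3 leaving out 1 array, with two-sided exact permutation p = 0.0286 without mutant 3. With normexp or quantile normalization, 3 of the 5 nearest profiles were shared.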

Other observations

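Mutant 3 fell short of the level called well above background at other probes besides CG34423, and mutants 1 and 4 did so at some probes of this kind too. Of 32162 fly probes, 23 were well above background on exactly 3 mutant and 0 control arrays. The missing array was mutant 3 for 10, CG34423 included, mutant 1 for 8, mutant 4 for 5 and mutant 2 for 0. Another 21 of the 32162 reached that level on each of the 4 mutant arrays and on 0 control arrays. The reverse count, of probes on control arrays only, is not given here, so nothing is read from these counts.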
